A study of Mus musculus with 12 samples.

Results

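The growth hormone, STAT5 and IGF1 axis of the liver was followed through 9 genes, taken by symbol: Ghr, Jak2, Stat5a, Stat5b, Igf1, Igfals, Socs2, Cish and Cux2. No measured value was used to choose them, but earlier results of these data were known when they were proposed. All 9 were found among the 55487 genes of the deposited count and TPM tables, and all 9 passed the filter on low counts. The libraries were poly(A) RNA-seq of 12 livers from male mice of 16 to 18 months, 3 in each of 4 groups. Control livers came from mice with floxed Foxo3 alleles and no Cre. Knockout livers came from Foxo3 flox/flox mice that carried Alb-cre, a Cre recombinase driven by the albumin promoter and therefore active in hepatocytes, so that other liver cells keep the gene. Fed animals had food ad libitum, and fasted animals had an overnight fast. The comparisons asked what fasting did to the axis in each genotype, what the genotype did in each feeding state, and whether the fasting response differed between genotypes.

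Pituitary growth hormone reaches hepatocytes in pulses and binds the receptor encoded by Ghr, which activates the tyrosine kinase encoded by Jak2. The kinase phosphorylates the transcription factors STAT5A and STAT5B, of which STAT5B is the main form in liver. STAT5 then drives Igf1, which supplies most circulating IGF1, and Igfals, the acid labile subunit that holds IGF1 in a long-lived plasma complex. It also drives Socs2 and Cish, SOCS family proteins that damp the same receptor. Cux2, a homeobox repressor, is a female-biased liver gene, since male mice receive sharper growth hormone pulses than females. In rodents, fasting is known to lower the liver's response to growth hormone.

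STAT5 binds a palindrome whose commonest form is TTCNNNGAA, and the promoter windows of the members were searched for those letters because Cish was among the genes that moved. A window ran from 250 bases before to 50 bases after a RefSeq start (GRCm38.p6), and 14 such windows were matched for 8 of the 9 members. Socs2 had no matched window. The motif reads the same on both strands, and 3 windows of 2 members, Cish and Igfals, held it, against 8.3% of all 32851 windows. The Cish window held it in 2 copies that did not overlap, against 0.457% of all windows with 2 or more. Both copies are given in capitals, with 1 copy in each of the Igfals windows, all on the plus strand.
Cish chr9:107296649-107296678: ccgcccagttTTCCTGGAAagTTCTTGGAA
Igfals chr17:24877594-24877656: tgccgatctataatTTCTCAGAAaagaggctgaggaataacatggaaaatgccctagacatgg
Igfals chr17:24878133-24878221: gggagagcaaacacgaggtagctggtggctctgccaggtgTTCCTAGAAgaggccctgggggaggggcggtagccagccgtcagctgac
The Cish copies began 1 and 12 bases from the RefSeq start, counted from 1 at the start itself, within the 5′ UTR of a longer GENCODE transcript. The Igfals copies began 236 and 58 bases before 2 alternative starts of the gene, and both stretches lay mostly in introns of its full span. The forkhead core GTAAACA, read on either strand, was in 1 window of Igfals, against 3.65% of all windows. These are letter matches in short windows and not measured binding sites.

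Each library held 17520058 to 22414976 counts over genes. Hepatocyte markers summed to 65720 to 117260 CPM (counts scaled to a library of 1000000) in every liver. The lowest sums were those of fed control 3, at 65720 CPM, and fasted control 3, at 67439. The library fed control 3 stood apart from the rest. Its interferon response genes summed to 507.3 CPM against 120.7 to 255.5 in the other 11 livers, and its stellate cell and fibroblast markers to 731.6 against 164.4 to 389.7. Its T and NK cell markers summed to 25.7 CPM against 4.04 to 14.9, and its cholangiocyte markers to 140.8 against 22.7 to 61.2. The fasting changes of the members in control livers are given with and without it. Fasted control 3 stood apart in another list: its B and plasma cell markers summed to 817.6 CPM against 30.5 to 298.7 in the other 11 livers. Fed knockout 1 had the highest sum of acute phase genes, which are high in inflammation. They summed to 28987 CPM there, against 8493 to 22372 in the other 11 livers. Of that list, Saa1 was at 2108 CPM in fed knockout 1, against 18.4 to 327.9 in the rest. Foxo3 itself was not lower in the knockout-labelled libraries: it was at 45.5, 44.5 and 50.4 CPM in the fed control group, against 59.4, 58.8 and 62.2 in fed knockouts. Fasted livers had 44.3, 39.9 and 38.1 CPM of Foxo3 without Cre and 46.6, 53.6 and 53.4 with it. The log2 difference averaged over feeding states was 0.34 ± 0.066 (SE; edgeR quasi-likelihood adjusted p = 0.247). A gene-level count can include transcripts with the floxed exons removed and so does not test the deletion; "knockout" below means the libraries labelled so.

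Per transcript length, Ghr was the most abundant member, at a mean of 153.9 TPM (counts per gene length, scaled to 1000000 per library) over the 12 libraries. Igf1 followed at 138.0 TPM, and Ghr was above Igf1 in 9 of 12 libraries, so the order of these neighbours was not the same in every liver. Igfals, at 75.7 TPM, lay below Igf1 and above Stat5b in every library. Stat5b averaged 24.8 TPM and Stat5a 5.25, so the form known as the main liver STAT5 was also the more abundant mRNA. Jak2 averaged 10.6 TPM. Cish averaged 5.54 TPM and was above Stat5a in only 4 of 12 libraries, 3 of them the fed controls. Socs2 averaged 3.12 TPM, and Cux2 was lowest at 0.326.

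The members differed most in how much they varied. Stat5b spanned a 1.14-fold range of CPM over all 12 livers, while Cish spanned 14.5-fold and Cux2 15.1-fold. Between replicates, the fitted biological coefficient of variation was 45.1% for Socs2, 40% for Cux2 and 36.5% for Cish, against 9.39% for Stat5b and 16.9% over all genes. Socs2, Cux2 and Cish were thus the members that varied most between replicate livers, and Stat5b, Jak2 and Ghr those that varied least.

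**Figure D1:**
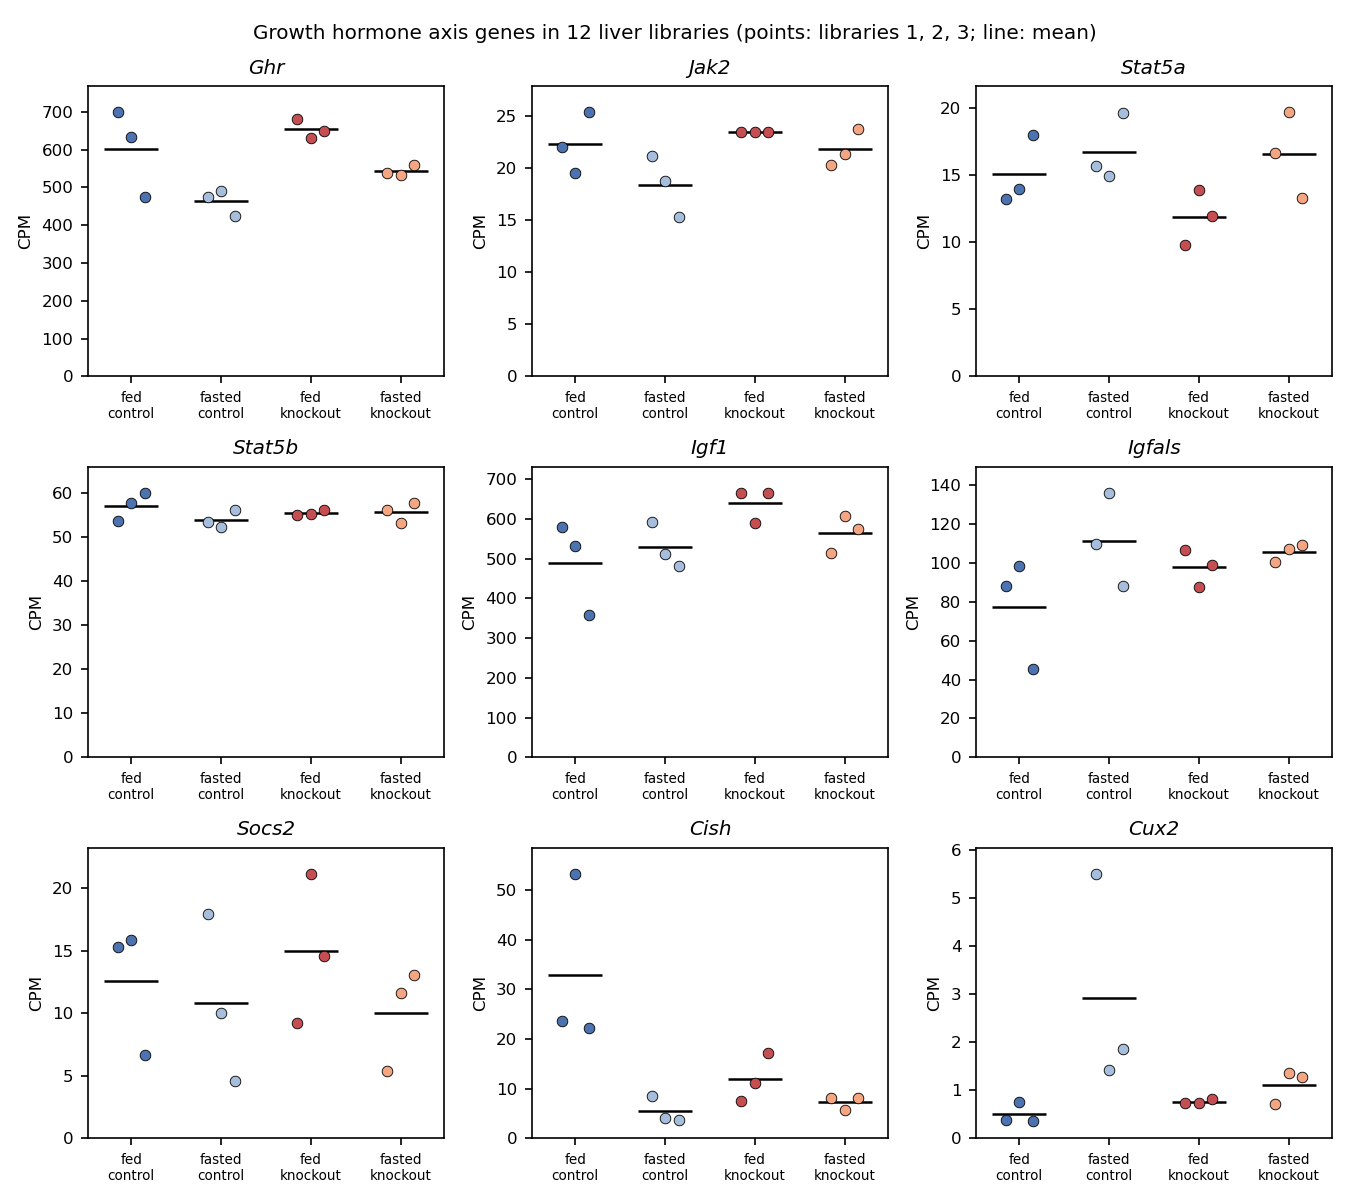
CPM of each member (y axis, linear from 0, own scale per panel) in the 12 livers, grouped on the x axis by genotype and feeding; points are livers and bars are group means. Cish is highest in the 3 fed controls and Cux2 in the 3 fasted controls, while Stat5b stays between 52.3 and 59.9 in all 12.

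Fasting in control livers changed 2 of the 9 members at an adjusted p under 0.05 over the 15862 genes tested: Cish fell and Cux2 rose. The same threshold was passed by 4.14% of all genes in this comparison (2.09% lower, 2.05% higher), and the members' median log2 change was -0.08 against -0.0035 over all genes. Cish, a feedback inhibitor of the receptor, fell 6.01-fold. Cux2 rose 5.82-fold from very low counts. Neither Igf1 nor Igfals, the secreted products, passed the test. In bulk liver, fewer cells of a type and less RNA per cell cannot be told apart.

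The receptor Ghr (ENSMUSG00000055737; mm10 chr15:3317760-3583492) was at 698.7, 634.8 and 475.1 CPM in fed control livers, against 474.2, 491.9 and 425.4 in fasted controls. The groups overlapped through fed control 3, the low fed value. The log2 change was -0.38 ± 0.14 (SE), with an edgeR adjusted p of 0.156. Without fed control 3 it was -0.53, with an adjusted p of 0.0254. In knockout livers Ghr was at 682.1, 629.8 and 650.5 CPM when fed and at 538.4, 532.1 and 558.2 when fasted. All 3 fasted knockouts lay below all 3 fed knockouts, a separation also seen, in either direction, in 23.3% of all genes, and the change of -0.27 ± 0.14 had an adjusted p of 0.409. Averaged over both genotypes the change was -0.32 ± 0.099 with an adjusted p of 0.0596; DESeq2 gave 0.0136, and edgeR without fed control 3 gave 0.00599. Ghr was thus lower after fasting in every fit run, and whether it passed the threshold turned on the tool and on 1 library.

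The kinase gene Jak2 (mm10 chr19:29251828-29313080) was at 22.04, 19.5 and 25.3 CPM in fed control livers, against 21.2, 18.7 and 15.3 in fasted controls. The groups overlapped, and the log2 change of -0.28 ± 0.13 had an edgeR adjusted p of 0.25. The change in Jak2 was -0.18 (adjusted p = 0.537) without fed control 3, the highest fed value. Fed knockouts were nearly identical to each other at 23.4, 23.4 and 23.4 CPM, and fasted knockouts lay at 20.3, 21.3 and 23.7. The change there was -0.11 ± 0.13 (adjusted p = 0.772).

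The 2 STAT5 genes sit side by side on chromosome 11, Stat5b at chr11:100780731-100850724 on the minus strand and Stat5a at chr11:100859351-100885169 on the plus strand (mm10). They share 608 windows of 50 identical bases, 8.21% of those in Stat5a transcripts and 11% of those in Stat5b transcripts, so some reads could have been assigned to either or to neither. Stat5b was at 53.6, 57.6 and 59.9 CPM in fed control livers, against 53.3, 52.3 and 56.1 in fasted controls. Its log2 change with fasting was -0.08, with a 95% interval of -0.25 to 0.09, and -0.05 without fed control 3. In knockout livers Stat5b was at 55.04, 55.2 and 56.1 CPM when fed and 56.0, 53.1 and 57.6 when fasted, a change of 0.00 with an interval of -0.17 to 0.18. Stat5b was thus the member whose changes were bounded most tightly.

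Stat5a was at 13.3, 13.9 and 18.0 CPM in fed control livers, against 15.7, 14.9 and 19.6 in fasted controls, a log2 change of 0.15 ± 0.18 (edgeR adjusted p = 0.688). The change in Stat5a was 0.298 without fed control 3 (adjusted p = 0.46). In knockouts it was at 9.77, 13.9 and 11.95 CPM when fed and 16.7, 19.7 and 13.3 when fasted. The groups overlapped by 1 liver on each side, and the change of 0.48 ± 0.18 did not pass the test (unadjusted p = 0.0194, adjusted p = 0.218). Its 3′ end overlaps exons of Stat3 on the opposite strand by 72 bases, and Stat3 had 485% to 1820% as many counts in each library. The kit was strand-specific, but the strand setting of the counting is not given in the sources used here.

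Neither gene of the secreted products passed the test for fasting. Igf1 (ENSMUSG00000020053; mm10 chr10:87858265-87937042) was at 578.7, 531.7 and 359.2 CPM in fed control livers, against 593.2, 512.5 and 482.0 in fasted controls. The lowest of the 6 was fed control 3, and the log2 change of 0.11 ± 0.17 (edgeR adjusted p = 0.764) became -0.07 without it. In knockouts Igf1 was at 663.8, 588.2 and 663.9 CPM when fed and 514.4, 606.6 and 573.7 when fasted. The groups overlapped, and the change was -0.18 ± 0.17 (adjusted p = 0.701). Averaged over genotypes the change was -0.03, with a 95% interval of -0.29 to 0.22, and -0.12 without fed control 3 (adjusted p = 0.472).

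Igfals (mm10 chr17:24865997-24882010) was at 88.1, 98.7 and 45.6 CPM in fed control livers, against 109.8, 135.8 and 88.3 in fasted controls. Fed control 3 was again the lowest, at 48.9% of the mean of the other 2 fed controls. The log2 change was 0.52 ± 0.24, with an unadjusted p of 0.0495 and an adjusted p of 0.257 (edgeR). Without fed control 3 it was 0.25 (adjusted p = 0.458). In knockouts Igfals was at 106.7, 87.7 and 98.8 CPM when fed and 100.5, 107.1 and 109.1 when fasted, a change of 0.11 ± 0.24 (adjusted p = 0.888). Neither product gene passed after adjustment, and the Igfals change in controls was smaller without fed control 3.

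Of the 2 feedback genes, Cish passed the test for fasting in controls and Socs2 did not, and neither passed in knockouts. No test compared the 2 genes with each other. Socs2 (mm10 chr10:95385362-95417180), which encodes a SOCS protein that targets the activated receptor, was at 15.2, 15.8 and 6.67 CPM in fed control livers, against 17.9, 10.0 and 4.56 in fasted controls. In knockouts it was at 9.25, 21.1 and 14.6 CPM when fed and 5.35, 11.6 and 13.0 when fasted. Each group of 3 spanned at least a 2.28-fold range, and all groups overlapped. The fasting change was -0.22 ± 0.54 in controls and -0.59 ± 0.54 in knockouts (edgeR adjusted p = 0.869 and 0.702). The change of Socs2 in controls was -0.53 without fed control 3 (adjusted p = 0.712). The 95% interval over all libraries in controls ran from -1.43 to 0.99, so changes within that range, in either direction, were not excluded.

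Cish (ENSMUSG00000032578; mm10 chr9:107296026-107302784), which encodes the founding member of the SOCS family and is a rapid STAT5 target, was at 23.7, 53.1 and 22.1 CPM in fed controls, from 498, 1136 and 487 counts. In fasted controls it was at 8.60, 4.19 and 3.67 CPM, from 174, 74 and 87 counts. Every fasted control lay below every fed control, by at least 2.57-fold, where 22.4% of all genes separated in either direction. The log2 change was -2.59 ± 0.46 (95% interval -3.60 to -1.57), with an edgeR adjusted p of 0.0133. It was -2.06 without fed control 2, the highest library, and -2.81 without fed control 3, and both passed (adjusted p = 0.0295 and 0.0209). Leaving out fasted control 2 or fasted control 3 gave -2.44 and -2.36, with adjusted p of 0.0642 and 0.0633, so the direction held and the call did not. Fasted control 3 is the library with high B and plasma cell markers, whose part in the result was not tested.

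In knockout livers Cish was at 7.53, 11.2 and 17.2 CPM when fed and at 8.18, 5.75 and 8.12 when fasted. The groups overlapped through fed knockout 1, the library with the highest acute phase sum, whose part in the result was not tested. The log2 change of -0.70 ± 0.45 had a 95% interval of -1.69 to 0.29 and an edgeR adjusted p of 0.527. The difference between the 2 fasting responses, knockout minus control, was 1.88 ± 0.63 on the log2 scale. Its unadjusted p was 0.0133 and its adjusted p 0.617 (DESeq2 0.14), so the fasting response of Cish was not shown to differ between genotypes across all genes tested.

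The fed levels of Cish separated by genotype without passing the test, where 12.3% of all genes separated in either direction. All 3 fed knockouts, at 7.53 to 17.2 CPM of Cish, lay below all 3 fed controls, at 22.1 to 53.1. The log2 difference was -1.46 ± 0.43 (unadjusted p = 0.00688), and its edgeR adjusted p was 0.779, as no gene passed in this comparison. Without fed control 2, the highest library, the Cish difference was -0.93 (adjusted p = 0.664). Fasted levels overlapped, with a difference of 0.42 ± 0.46. Among 8 immediate early genes of tissue handling, a list that includes Fos, 1 passed with fasting in controls, where 4.14% of all genes did. It was Dusp1, which fell by 1.56 on the log2 scale (edgeR adjusted p = 0.0125). In knockouts 0 passed, where 2.48% of all genes did. At an unadjusted p under 0.05 there were 4 in controls (19.4% of all genes) and 3 in knockouts (14.6%). Averaged over genotypes 3 of the 8 passed, all lower, where 9.07% of all genes passed (4.52% lower). The list summed to 129.8 to 187.5 CPM in fed controls and 83.4 to 104.7 in fasted controls, and to 111.5 to 162.3 in fed knockouts and 79.4 to 129.1 in fasted knockouts, which overlapped. Acute phase genes had 10 of 10 positive knockout differences in fed livers, with a median of 1.13. By edgeR 0 of them passed, with 7 at an unadjusted p under 0.05 (6.12% of all genes). They summed to 15030 to 28987 CPM in fed knockouts and 8493 to 12046 in fed controls. The part of either list in the Cish result was not tested.

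The Cish locus holds other annotated genes on the opposite strand. Gm17041, an antisense gene at chr9:107300380-107301838 (mm10), has all 479 of its exon bases inside Cish exons, and its counts were 25.4% to 37.8% of those of Cish in each library. It changed with fasting in controls by -2.63 ± 0.49 (edgeR adjusted p = 0.013) and in knockouts by -1.01 ± 0.49 (adjusted p = 0.371). Gm17040, a transcribed pseudogene that shares 261 of its 1150 exon bases with Cish, changed in controls by -2.87 ± 0.50 (adjusted p = 0.00829). Reads of the 3 genes cannot be told apart without the strand setting of the counting where their exons overlap, so their changes are not offered as separate support for the Cish change.

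**Figure D2:**
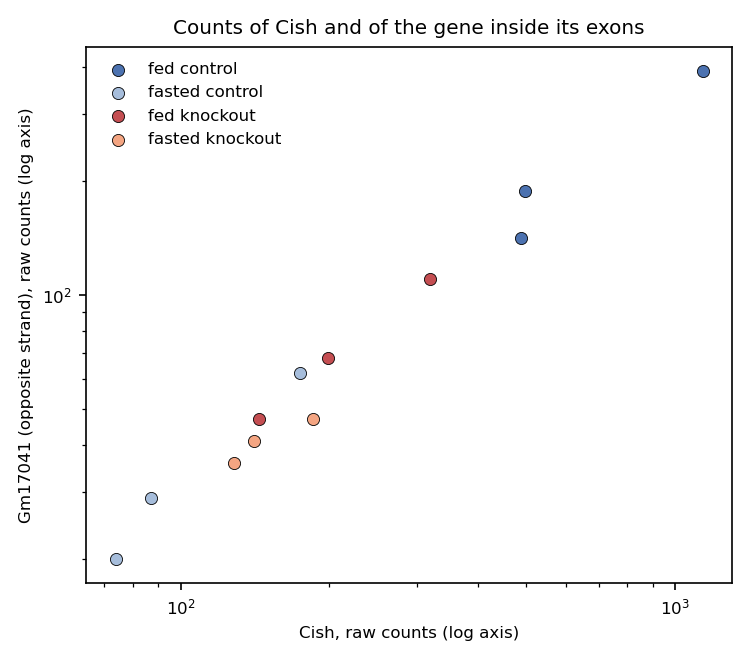
Counts of Gm17041 (y axis) against counts of Cish (x axis), both on log scales, in the 12 livers, coloured by group. The points follow 1 line, with Gm17041 at 25.4% to 37.8% of Cish in each library.

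Cux2 (ENSMUSG00000042589; mm10 chr5:121856366-122050102) was at 0.38, 0.748 and 0.363 CPM in fed controls, from 8, 16 and 8 counts. In fasted controls it was at 5.49, 1.41 and 1.86 CPM, from 111, 25 and 44 counts. Cux2 and Cish were the 2 of 9 members whose control groups did not overlap, against 22.4% of all genes. For Cux2, all fasted controls lay above all fed controls, and fasted control 1 was 2.96 times the next highest library. The log2 change was 2.54 ± 0.52 (95% interval 1.42 to 3.66; edgeR adjusted p = 0.0166), and it was 1.71 (adjusted p = 0.0495) without fasted control 1. Without fed control 1 or fed control 3 the change was 2.39 and 2.36, with adjusted p of 0.06 and 0.051.

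In knockout livers Cux2 was at 0.732, 0.731 and 0.807 CPM when fed, from 14, 13 and 15 counts, and at 0.708, 1.35 and 1.27 when fasted, from 16, 30 and 22. The groups overlapped, and the log2 change was 0.54 ± 0.52 (95% interval -0.59 to 1.67; edgeR adjusted p = 0.712). The difference between the fasting responses was -2.002 ± 0.74 (unadjusted p = 0.0177, adjusted p = 0.623; DESeq2 0.482), and -1.16 (adjusted p = 0.721) without fasted control 1. Fasted knockouts all lay below fasted controls, at 0.708 to 1.35 against 1.41 to 5.49 CPM, where 14% of all genes separated in either direction. That difference of -1.40 ± 0.48 did not pass after adjustment (unadjusted p = 0.0121, adjusted p = 0.521). It was -0.57 (adjusted p = 0.711) without fasted control 1, and at these counts single reads weigh on each value.

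**Figure D3:**
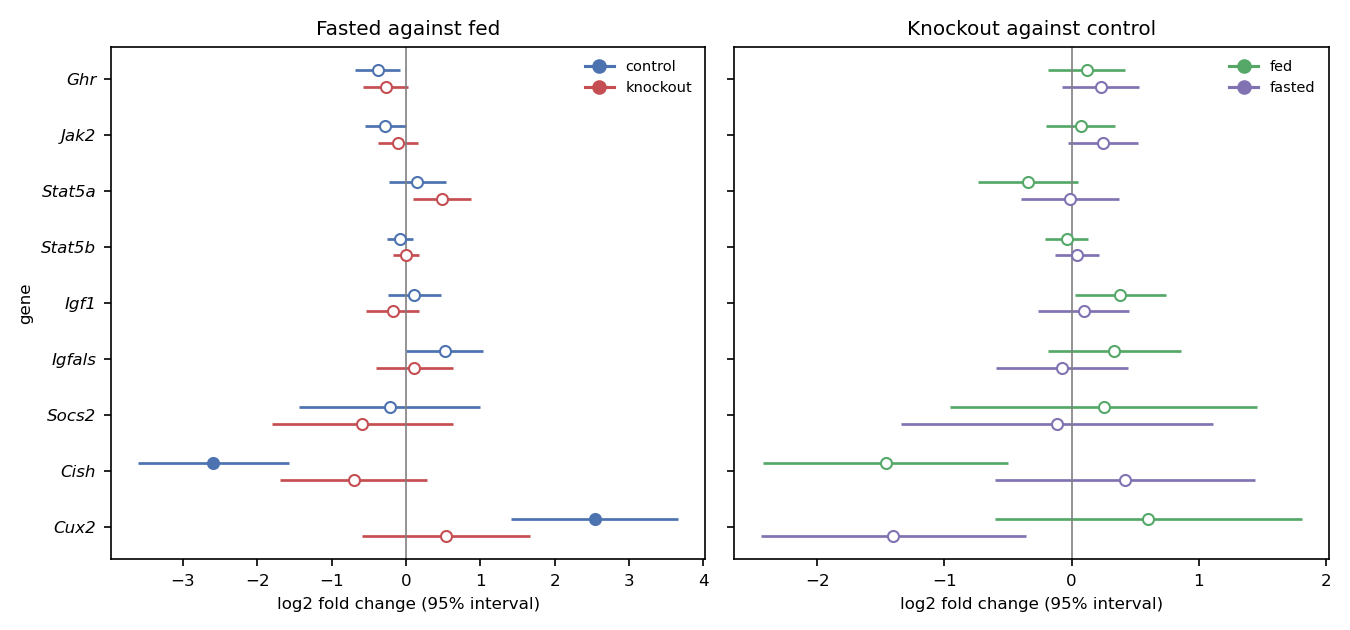
Log2 fold change of each member (x axis) with its 95% interval; left, fasted against fed in control and in knockout livers; right, knockout against control in fed and in fasted livers. Filled points passed an adjusted p of 0.05; these are Cish, at -2.59, and Cux2, at 2.54, for fasting in control livers.

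Fasting in knockout livers changed 0 of the 9 members by edgeR, where 2.48% of all genes passed. Stat5a was the 1 member with an unadjusted p under 0.05, as were 14.6% of all genes, and DESeq2 also called 0. Averaged over both genotypes, Cish and Cux2 passed, where 9.07% of all genes did (4.55% higher, 4.52% lower): Cish by -1.65 ± 0.32 (adjusted p = 0.0104) and Cux2 by 1.54 ± 0.37 (adjusted p = 0.0196). DESeq2 added Ghr. Values of the 6 fed and the 6 fasted livers overlapped for every member, against 4.93% of all genes that separated.

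The genotype changed 0 of the 9 members by edgeR in any comparison. The shares of all genes that passed were 0% in fed livers, 0.0315% in fasted livers and 0.0126% averaged over feeding states. At an unadjusted p under 0.05 there were 2 members in fed livers, Igf1 and Cish, 1 in fasted livers, Cux2, and 0 on average. Over all genes, 6.12%, 9.01% and 7.91% were under that unadjusted p. The 6 control and 6 knockout livers overlapped for every member as well, against 0.334% of all genes that separated. DESeq2 called 0 members in each comparison, but in fed livers it gave an adjusted p to 4 of the 9 members only. The interaction of genotype and fasting also called 0 members by both tools, where 0.0063% of all genes passed by edgeR, with Cish and Cux2 under an unadjusted p of 0.05, as were 7.19% of all genes.

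Other separations between genotypes were seen for Igf1 and Ghr. Igf1 in fed livers was at 588.2 to 663.9 CPM in knockouts against 359.2 to 578.7 in controls, a log2 difference of 0.38 ± 0.17 (unadjusted p = 0.0386, edgeR adjusted p = 0.806). Without fed control 3 it was 0.19 (adjusted p = 0.964). Ghr in fasted livers was at 532.1 to 558.2 CPM in knockouts against 425.4 to 491.9 in controls, a difference of 0.23 ± 0.14 (adjusted p = 0.649). With Cish in fed and Cux2 in fasted livers, 2 of 9 members did not overlap in each feeding state, against 12.3% of all genes in fed and 14% in fasted livers.

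Within groups, the members were compared in pairs by the correlation of their deviations from the group means in log2 CPM over the 12 libraries. Of 36 pairs, 20 were positive, and 1 passed an adjusted p of 0.05 in an exact permutation within groups: Ghr and Stat5a, with Pearson's r of -0.74 and Spearman's rho of -0.85. Both had an exact permutation p of 0.00077, the smallest that 1296 arrangements can give, and an adjusted p of 0.0278. Without the 2 libraries farthest from the median of Ghr, r was -0.82. On log2(TPM + 1) the r of this pair was -0.45 and no pair passed, so the relation did not hold on the other scale. Ghr and Igfals gave r = 0.93 (exact permutation p = 0.0231, adjusted 0.264), Ghr and Igf1 r = 0.88 (adjusted 0.264), and Igf1 and Igfals r = 0.82 (adjusted 0.357). The receptor and both product genes were all low in fed control 3, and without the 2 libraries farthest from the median of Ghr the r of Ghr and Igf1 was 0.57, while that of Ghr and Igfals stayed at 0.93.

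Over all 12 libraries, group differences included, the genes most like each member were looked up among 10100 genes with a mean of at least 5 CPM. The genes most like Cish were Tdp2 (r = 0.94), Rmnd5a (r = 0.93) and Rgs3 (r = 0.92). Those most like Igf1 were Atrnl1, Lgr4 and Slc22a3, at r of 0.93, 0.93 and 0.90, and those most like Igfals were Il1rap, Epb41l4b and Eif3l, at 0.95, 0.95 and 0.94. Gm15962, Keg1 and Hsd3b2 led for Ghr, at 0.97, 0.97 and 0.96, and Pcbp4, Rpl9-ps4 and Akt1 for Cux2, at 0.88, 0.88 and 0.87. No member was among the 3 genes most like another member. These values describe likeness over 12 shared libraries and carry no test.

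The partners and brakes of the receptor, a list of 24 genes such as Stat3, Socs3 and Ptpn1, had 23 members tested. Averaged over genotypes, fasting raised 1 and lowered 2 of the 23, where 9.07% of all genes passed, with a list median of -0.02 against -0.0093 over all genes. The adaptor gene Sh2b1 rose by 0.28 ± 0.070 (edgeR adjusted p = 0.0272), and the SOCS family genes Socs4 and Socs7 fell by 0.24 and 0.39 on the log2 scale (adjusted p = 0.0272 and 0.029). Leaving out 1 library lost the call in 6 of 12 fits for Sh2b1, 8 for Socs4 and 6 for Socs7. Prlr, the prolactin receptor gene, was at 0.43 ± 0.14 (adjusted p = 0.0756). In controls 1 gene passed, Sh2b1, and in knockouts 0 passed by edgeR, with 4 at an unadjusted p under 0.05 (14.6% of all genes) and 1 called by DESeq2. For the genotype averaged over feeding states 0 passed, with 5 at an unadjusted p under 0.05 (7.91% of all genes) and 1 called by DESeq2; Irs2, an insulin and IGF1 receptor substrate, had the smallest p at 0.52 ± 0.11 (adjusted p = 0.311).

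Of the 16 IGF binding proteins, receptors and proteases, 10 were tested and 0 passed by edgeR in any of the 7 comparisons. At an unadjusted p under 0.05 there were 2 for fasting averaged over genotypes (23.6% of all genes), where DESeq2 called 1, and 3 for the genotype averaged over feeding states (7.91% of all genes), where DESeq2 called 0. The IGF binding protein genes Igfbp4 and Igfbp2 were at 0.36 ± 0.11 (edgeR adjusted p = 0.0664) and 0.93 ± 0.38 (adjusted p = 0.177) for fasting. Igf2r and Igf1r, the receptor genes, were at 0.26 ± 0.080 and -0.48 ± 0.20 for the genotype (adjusted p = 0.544 and 0.604).

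All 15 transcription factors of the list that act with STAT5 in liver were tested. Fasting averaged over genotypes raised 4 and lowered 2, where 9.07% of all genes passed. Trim24, a nuclear receptor cofactor, rose by 0.92 ± 0.13 (edgeR adjusted p = 0.00127), and Cebpb, a C/EBP factor of the fasting response, by 0.55 ± 0.11 (adjusted p = 0.00859). Trim24 was at 32.1, 35.0 and 37.2 CPM in fed control livers, against 57.5, 63.0 and 62.9 in fasted controls, and at 24.7, 27.0 and 37.7 in fed knockouts and 42.6, 69.5 and 69.6 in fasted knockouts. The fasted livers were all above the fed ones, a separation seen, in either direction, in 4.93% of all genes. Nr3c1, the glucocorticoid receptor gene, fell by 0.32 on the log2 scale (adjusted p = 0.012), and Onecut1, which encodes HNF6, a factor of growth hormone-regulated promoters, by 1.71 (adjusted p = 0.0235). The Onecut1 call was lost without the filter on low counts (adjusted p = 0.0648) and in 7 of the 12 fits that left out 1 library. Foxo3 had the smallest p of the list for the genotype, as given above.

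Of 8 fasting signals known to reach the axis, 0 passed for fasting averaged over genotypes by edgeR, with 2 at an unadjusted p under 0.05 (23.6% of all genes) and both called by DESeq2. Fgf21, a fasting hormone that lowers STAT5 activity, was at 1.6 ± 0.46 (edgeR adjusted p = 0.0521; DESeq2 0.0037). Ppara, its upstream nuclear receptor gene, was at 0.27 ± 0.089 (adjusted p = 0.0767; DESeq2 0.0334). Ppara passed within knockout livers, at 0.56 ± 0.13 (adjusted p = 0.0361), and was at -0.01 ± 0.13 in controls; the difference of 0.57 ± 0.18 had an adjusted p of 0.556.

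Sex-biased liver genes, the readout by which growth hormone pulses are best known in mouse liver, were taken as 2 lists. Of 16 male-biased genes 15 were tested: with fasting in knockouts 5 fell and 0 rose, all 15 fitted changes were negative, and the median was -1.34 against -0.0059 over all genes, where 2.48% passed. In controls 1 of the 15 fell, where 4.14% of all genes passed, and the median was -0.23. Without fed control 3, in which this list was low, 3 of the 15 fell in controls and the median was -0.46. Of 20 female-biased genes 17 were tested: with fasting in knockouts 2 rose and 0 fell with a median of 1.04, and in controls 1 fell with a median of -0.05 (0.12 without fed control 3). Acute phase genes, which are high in inflammation, had 10 of 10 negative fitted changes with fasting in knockouts and a median of -0.90. By edgeR 0 of them passed there, with 3 at an unadjusted p under 0.05 (14.6% of all genes). In controls the median of the acute phase genes was 0.17. Their part in the changes of the sex-biased lists was not tested. Under the interaction 0 genes of either list passed by edgeR, with 6 of each at an unadjusted p under 0.05 (7.19% of all genes) and 2 of each called by DESeq2. The response was therefore not shown to differ between genotypes for any single gene by edgeR.

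Hsd3b5, a male-specific steroid dehydrogenase gene, was at 26.3, 67.5 and 0.136 CPM in fed control livers, against 1.34, 3.23 and 1.603 in fasted controls. In knockouts it was at 84.15, 69.0 and 102.0 CPM when fed and 0.133, 0.809 and 0.346 when fasted. Fed control 3 thus lay with the fasted knockouts, and the other 5 fed livers above every fasted one. The change averaged over genotypes was -5.78 ± 1.02 (edgeR adjusted p = 0.0091). Nudt7, a peroxisomal CoA hydrolase gene, fell in both genotypes, by 1.55 in controls and 1.63 in knockouts on the log2 scale (adjusted p = 0.015 and 0.017). C6, a complement gene, and Selenbp2 fell on average by 1.11 and 3.62 on the log2 scale (edgeR adjusted p = 0.019 and 0.017). Selenbp2 was at 371.7 CPM in fed knockout 1, against 49.7 and 54.2 in fed knockouts 2 and 3.

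Among female-biased genes, Acot3, a peroxisomal thioesterase gene, was at 44.0, 34.5 and 44.0 CPM in fed control livers, against 65.3, 144.6 and 45.0 in fasted controls. In knockouts it was at 3.19, 13.2 and 12.8 CPM when fed and 115.9, 64.9 and 76.1 when fasted. Every fed knockout lay below every other liver, and the change averaged over genotypes was 2.1 ± 0.39 (edgeR adjusted p = 0.0108). Fmo2, a flavin monooxygenase gene, rose by 0.98 ± 0.20 (adjusted p = 0.0135). Ntrk2, a neurotrophin receptor gene, went the other way: it fell by 1.66 on the log2 scale on average (adjusted p = 0.000231). Acot3 is also a known target of the fasting receptor PPAR alpha, so it is not specific to growth hormone.

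In fed livers all 15 male-biased genes had positive knockout differences, with a median of 0.62, and 0 passed by edgeR, with 3 at an unadjusted p under 0.05 (6.12% of all genes) and 1 called by DESeq2. Without fed control 3, 11 of 15 were positive and the median was 0.39. The summed CPM of the male-biased list was 2359, 2718 and 1194 in fed controls, 1846, 2132 and 2338 in fasted controls, 3316, 2906 and 3294 in fed knockouts and 1478, 1621 and 1467 in fasted knockouts. Fed knockouts were the highest group and did not overlap any other group. Of the 17 female-biased genes tested, 13 had negative knockout differences in fed livers, with a median of -1.08. By edgeR 0 of them passed, with 7 at an unadjusted p under 0.05 (6.12% of all genes). The female-biased sum was lowest in fed knockouts, at 186.7 to 205.0 CPM, against 221.3 to 750.3 elsewhere. Among fed controls it was highest in fed control 3, at 515.2 CPM against 286.6 and 258.1. Acute phase genes summed to 28987, 15030 and 17503 CPM in fed knockouts 1, 2 and 3, and to 8493 to 12046 in fed controls. Their part in these differences was not tested.

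**Figure D4:**
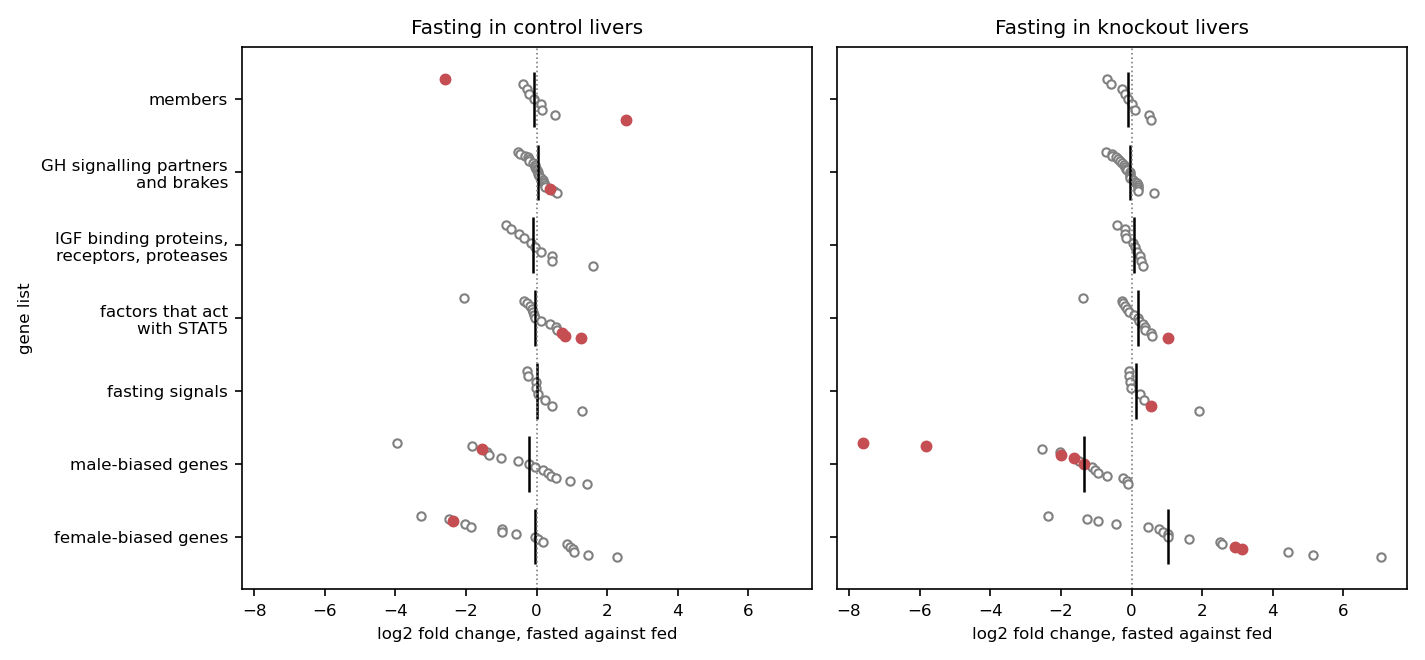
Log2 change with fasting (x axis) of each tested gene of the 9 members and 6 related lists (y axis), in control livers (left) and knockout livers (right); filled points passed an adjusted p of 0.05 and black bars are list medians. The median of the male-biased genes is -0.23 in controls (-0.46 without fed control 3) and -1.34 in knockouts, and that of the members is -0.08 and -0.11.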

How the data were processed

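RNA was poly(A)-selected and made into strand-specific libraries, per the labels' protocols. Gene counts and TPM values were deposited by the authors as tables of 12 libraries. The submitters' processing notes name bcl2fastq 2.19, Trimmomatic 0.38, HISAT2 2.1.0, featureCounts 1.6.3, DESeq2 1.24.0 and mm10; for strandedness, multimapped reads and annotation, the settings were not given in the sources used here. Deposited TPM values equalled counts per fixed gene length, scaled to 1000000. Depth was 17520058 to 22414976 counts per library.

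Counts were filtered with filterByExpr (15862 genes kept, 39625 removed), scaled by TMM (factors 0.923 to 1.12) and fitted in 1 edgeR 4.0.16 quasi-likelihood model of the 4 groups over all 12 libraries, in R 4.3.3 with limma 3.58.1. The 7 contrasts were tested with Benjamini-Hochberg adjustment over all genes tested, at a threshold of 0.05. Errors of log2 changes are standard errors, and intervals are 95% intervals from the fit. CPM values are TMM-scaled. Alternatives were DESeq2 1.42.0, RLE size factors, no filter, a replicate block and leaving out each library. The fit was tested on 1 set of simulated counts, with changes placed in fasted controls. For fasting in controls it called 58 of 98 genes changed 2-fold (59.2%) and 77 of 99 changed 4-fold (77.8%), with 5 false calls. A member without a call can therefore still have changed. Correlations used the exact permutation of libraries within groups.

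The labels name biological replicates without batches. The p-values rest on the spread between livers within groups of 3, as pooled over all groups in the joint fit. The numbers in the deposited library names run in a separate block for each group, and what they stand for is not given. Differences between groups therefore cannot be told apart from differences between these blocks, whose part in the results was not tested. No library had values identical to another.

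The members and 16 gene lists were chosen with earlier results of these data known. The genes named beside the members are the 4 of each related list with the smallest p for fasting averaged over genotypes or for the genotype averaged over feeding states, and the 3 genes most like each member. The values of 1 gene named by this rule are not reported here. Ppara in knockouts, Nudt7 by genotype, Sh2b1 in controls and per-library values of Trim24, Acot3 and Hsd3b5 were chosen for display after their values were seen.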

Additional observations from a re-analysis of the deposited data

How the results depend on the processing

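Of 1003 alternative values for the 63 member results, 966 kept their direction and their side of the threshold. The 4 lost calls came from leaving out 1 library, for Cish and Cux2 with fasting in controls, as given above; the 3 gained calls were those of Ghr by DESeq2 and without fed control 3. Members called with fasting in controls ranged from 1 to 2 when 1 library was left out, and averaged over genotypes from 2 to 3, with 3 by DESeq2. All 30 changes of sign came from leaving out 1 library, in 16 results with no call, and their lowest and highest log2 values were as follows. For fasting in controls, Igf1 ranged from -0.073 to 0.25 and Socs2 from -0.81 to 0.15; in knockouts Stat5b ranged from -0.021 to 0.037, and averaged over genotypes Igf1 from -0.12 to 0.037. For the genotype in fed livers, Ghr ranged from -0.038 to 0.24, Jak2 from -0.015 to 0.16 and Socs2 from -0.077 to 0.50. In fasted livers Stat5a ranged from -0.16 to 0.12, Igfals from -0.22 to 0.095 and Socs2 from -0.49 to 0.47. Averaged over feeding states, Stat5b ranged from -0.019 to 0.018, Igfals from -0.011 to 0.24, Socs2 from -0.13 to 0.36 and Cux2 from -0.56 to 0.012. For the interaction, Ghr ranged from -0.0095 to 0.26 and Socs2 from -0.74 to 0.23.

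Counts of all genes called depended on the tool. DESeq2 called 1170 genes for fasting in controls and 791 in knockouts, 35, 41 and 46 for the genotype in fed livers, in fasted livers and on average, and 60 for the interaction. Without the filter on low counts the genotype comparisons called 5, 13 and 4 genes and the interaction 5. Leaving out 1 library gave 272 to 648 genes for fasting in controls and 88 to 573 in knockouts. It gave 0 to 1, 1 to 6 and 1 to 3 genes for the genotype in fed livers, in fasted livers and on average, and 1 to 3 for the interaction. The replicate numbers did not pair the samples: over 18 same-numbered pairs of libraries the correlation of deviations ran from -0.28 to 0.18, and 3 of 12 libraries correlated best with their own number. With the replicate block, 232 genes passed for fasting in knockouts and 3 for the genotype in fasted livers, and no member call changed; the cause was not tested. For co-variation, 0 pairs passed on log2(TPM + 1), on log2(TPM + 0.1) or with 1 library left out. In the last case the r of Ghr and Stat5a ran from -0.80 to -0.70, with an exact permutation adjusted p of 0.0833 each time. With the fewer arrangements, a pair that alone reached the smallest p could not pass. Counts of 8 to 111 limit the precision of Cux2.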
